A study of Mus musculus with 6 samples.

Results

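The genes of glycolysis and the pentose phosphate pathway were followed in 32D cells carrying wild-type or mutant U2AF1. A list of 32 gene symbols, running from glucose uptake to lactate export and including the pentose phosphate branch, was matched by symbol to the deposited count table. It gave 33 rows of 54532, because Aldoa has 2 rows, and 30 of these rows had enough counts to be tested among 13444 genes. 32D is a mouse myeloblast-like line that needs interleukin-3 to grow. Both groups grew in the same medium (IMDM with serum and mouse interleukin-3) and had received an MSCV-IRES-GFP retrovirus, so the wild-type group (WT, 3 libraries) carried human wild-type U2AF1 and the mutant group (S34F, 3 libraries) carried human U2AF1 with S34F, a substitution that recurs in myeloid malignancies. The construct adds to the mouse's own U2af1 in both groups, so the comparison is of added mutant against added wild-type protein. The labels do not name separate cultures or clones, and p-values then reflect only how far these libraries differ among themselves, and that spread may be technical.

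Glycolysis splits glucose into pyruvate and yields ATP and NADH. Fast-growing hematopoietic cells send much of the pyruvate on to lactate through lactate dehydrogenase and export it. The pentose phosphate pathway leaves glycolysis at glucose 6-phosphate: its oxidative arm makes NADPH, which keeps glutathione and thioredoxin reduced, and its non-oxidative arm makes ribose 5-phosphate for nucleotides and returns carbon to glycolysis.

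Libraries held between 16509899 and 19129250 counts, and 1 count equalled 0.0520 to 0.0608 CPM (counts scaled to library size with TMM factors). Values of a group are given in the order of replicates 1, 2 and 3. WT replicates 2 and 3 differed far less than other replicates did (chi-square per degree of freedom 2.30, where other pairs of a group gave 24.7 to 39.8). Results are therefore also given with those libraries summed into 1.

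Of the 30 rows tested, Hk3 and Rpia rose in S34F cells and none fell (edgeR, quasi-likelihood F test; adjusted p under 0.05 by Benjamini-Hochberg over all genes tested). Over all 13444 genes 1.58% rose and 0.595% fell by the same rule. A positive log2 fold change was found for 27 of the 30, with Pfkm, Pfkfb3 and Pfkfb4 as the exceptions, against 50.1% of all genes. The median log2 fold change was 0.28, against 0.00052 over all genes. At an unadjusted p under 0.05, 12 were higher and 0 lower, where 11.9% of all genes were higher and 10.1% lower. Every S34F library lay above every WT library for 8 of the 30, or 26.7%, against 14.0% of all genes: Slc2a3, Hk1, Hk2, Hk3, Pfkl, Gapdh, Pgls and Rpia. Gapdh is counted here by its own row, while near-identical copies of the gene held 92.4% of the summed counts. With the copies summed in, its groups overlapped. No tested row had every S34F library below every WT library, where 13.1% of all genes did. The number called depended on the setting: DESeq2 called 10 rises (5.55% of all genes rose and 3.5% fell by it), and with WT replicates 2 and 3 summed only Hk3 passed (0.116% of all genes rose and 0.029% fell). Without WT replicate 1, where WT replicates 2 and 3 alone give the WT level and spread, the number was 9 (5.22% of all genes rose and 3.29% fell). In the settings tried, no fall was called among the 30.

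**Figure D1:**
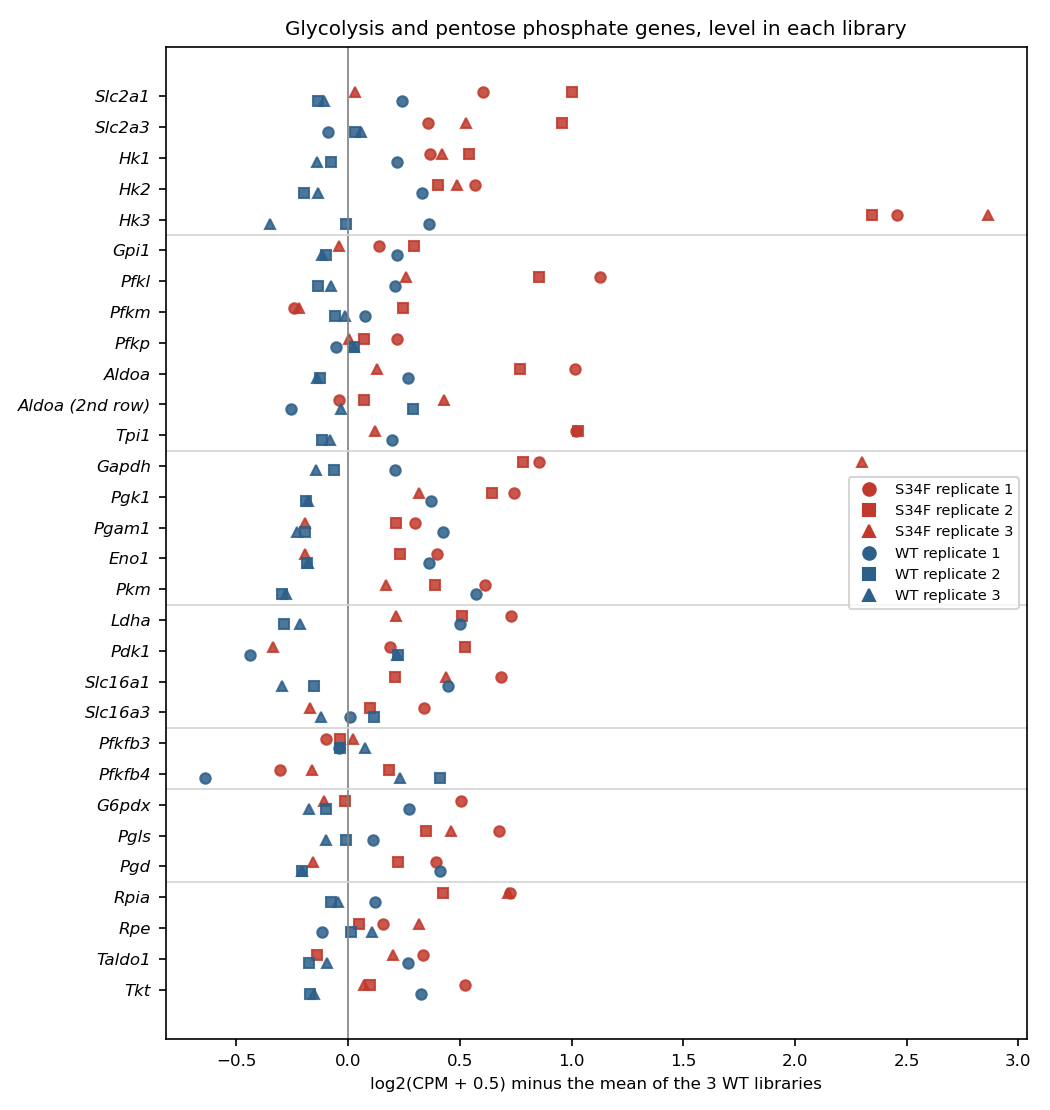
Level of each tested gene in each library, as log2(CPM + 0.5) minus the mean of the 3 WT libraries, in pathway order from uptake (top) to the non-oxidative pentose phosphate arm (bottom); grey lines part the branches. S34F libraries are red and WT libraries blue; the S34F points of Hk3 lie furthest to the right, with that of Gapdh in S34F replicate 3 close to them, and WT replicate 1 (blue circles) is the highest WT library for 22 of the 30 rows.

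The WT libraries were not alike for these genes. WT replicate 1 was the highest WT library for 22 of the 30 rows (73.3%), against 42.0% of all genes. All 3 S34F libraries lay above WT replicates 2 and 3 for 19 rows (63.3%, against 25.6% of all genes). WT replicate 1 lay above S34F replicate 3 for 16 rows (53.3%, against 49.8%). With the WT mean as 0, the median log2 level of the 30 was 0.45, 0.32 and 0.15 in the S34F libraries and 0.22, -0.10 and -0.12 in the WT libraries. S34F replicate 3 thus sat below WT replicate 1 in this summary, and the groups overlapped. The transcripts had a median GC content of 53.1%, against 49.1% over all genes. After removal of each library's trend with GC content the median log2 fold change of the 30 was 0.25, and without WT replicate 1 it was 0.49.

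Glucose uptake and phosphorylation gave the highest median of the 7 branches, a log2 fold change of 0.59. All 5 genes had positive fold changes, against 50.1% of all genes. For 4 of them every S34F library lay above every WT library, against 14.0% of all genes. Slc2a1 and Slc2a3 encode the glucose transporters GLUT1 and GLUT3. Slc2a3 was counted at 346, 525 and 389 CPM in the S34F libraries and at 254, 276 and 282 CPM in the WT libraries. The lowest S34F library was above the highest WT library, but the difference did not pass (log2 fold change 0.63 ± 0.16, SE, n = 3 per group, edgeR adjusted p = 0.0777). DESeq2 gave an adjusted p of 0.00624 for it, and the sum of WT replicates 2 and 3 one of 0.242. Slc2a1 was counted at 188, 247 and 126 CPM in the S34F libraries and at 146, 112 and 114 CPM in the WT libraries. S34F replicate 3 lay below WT replicate 1, and the difference did not pass (log2 fold change 0.59 ± 0.23, edgeR adjusted p = 0.176). Per kb of exon both transporters stood at a like level, with GLUT1 mRNA taking 47.4% ± 6.62 of their sum in S34F and 48.5% ± 4.97 in WT (SD, n = 3). In counts not divided by length the GLUT1 share was 30.6% in S34F and 31.4% in WT.

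Hexokinases trap glucose in the cell by phosphorylating it. Hk3 (ENSMUSG00000025877, chromosome 13, 55005985 to 55021385, minus strand, mm10), a hexokinase mainly found in myeloid cells, was counted at 9.42, 8.68 and 12.7 CPM in the S34F libraries and at 1.82, 1.30 and 0.919 CPM in the WT libraries. These values rest on 167, 167 and 212 reads in S34F and 30, 22 and 17 in WT. Every S34F library was well above every WT library. Hk3 rose 7.61-fold (log2 fold change 2.93 ± 0.31, SE, n = 3 per group, edgeR adjusted p = 0.00689), and it passed in all 17 alternatives, with leave-one-out log2 fold changes of 2.71 to 3.21 and adjusted p-values of 0.00419 to 0.0443. With WT replicates 2 and 3 summed its edgeR adjusted p was 0.0293.

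The widely expressed Hk1 and Hk2 make up most of the hexokinase mRNA. Hk1 stood at 219, 247 and 227 CPM in the S34F libraries and at 197, 160 and 154 CPM in the WT libraries. Hk2, the inducible isoenzyme bound to mitochondria, stood at 185, 165 and 175 CPM in S34F and at 157, 109 and 113 CPM in WT. Neither pair of groups overlapped, since WT replicate 1, the highest of its group, stayed below the lowest S34F library. The differences did not pass (Hk1 log2 fold change 0.44 ± 0.13, edgeR adjusted p = 0.104; Hk2 0.47 ± 0.15, adjusted p = 0.129). Their edgeR adjusted p-values ranged from 0.0260 to 0.370 and from 0.0188 to 0.435 with a library left out, and of these fits only that without WT replicate 1 passed; with WT replicates 2 and 3 summed they were 0.357 and 0.400. Summed per kb of exon, the 3 hexokinases reached 59.2, 58.9 and 59.3 CPM per kb in the S34F libraries and 49.9, 37.4 and 37.3 in the WT libraries. The S34F libraries were nearly equal and all above WT. Hk3 took 4.71% ± 0.959 of that sum in S34F against 0.868% ± 0.174 in WT (SD over 3 libraries; exact permutation test, two-sided, p = 0.1, the smallest that 3 against 3 can give, and 0.6 after adjustment over 18 shares). Thus Hk3 showed the greatest fold change of the 30 rows and remained a small part of the hexokinase mRNA in both groups.

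**Figure D2:**
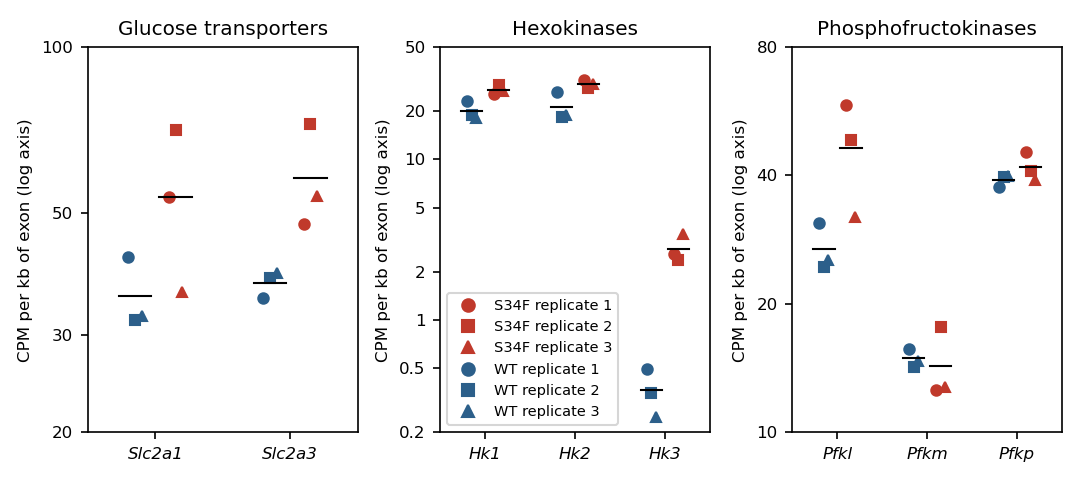
Levels of the glucose transporter, hexokinase and phosphofructokinase genes in CPM per kb of exon, on log axes; each point is a library (red S34F, blue WT) and each black bar the mean of 3. Hk3 lies about an order of magnitude below Hk1 and Hk2 in S34F and further below in WT; the WT and S34F points of Pfkm and Pfkp overlap, those of Pfkl do not.

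Among markers of myeloid maturation a few genes rose between the same groups and most did not pass. Log2 fold changes were positive for 6 of 8 tested granulocyte genes (median 0.83) and 5 of 5 monocyte and macrophage genes (median 1.44). They were so for 7 of 7 myeloid identity genes (median 0.41), against 50.1% of all genes. At an unadjusted p under 0.05 (edgeR), 3, 4 and 2 genes of these lists were higher and 0 lower, where 11.9% of all genes were higher and 10.1% lower. Of 15 granulocyte maturation genes 8 could be tested and 1, Lcn2, rose; their summed level lay between 788 and 1149 CPM in S34F and between 361 and 428 CPM in WT, and none of the 15 was at 0 in all libraries. Lcn2 rose 6.42-fold (edgeR adjusted p = 0.00292). Most of that sum came from Lcn2 (means of 560 CPM in S34F and 87.3 CPM in WT) and Ctsg (374 and 251 CPM, which did not pass). The log2 fold changes of Prtn3 and Ngp, of the same list, were -0.40 ± 0.22 and -1.06 ± 0.80. Of 8 monocyte and macrophage genes 5 could be tested and 1, Fcgr1, rose, with sums of 312 to 395 CPM and 249.3 to 266 CPM and Ly6c2 at 0. Fcgr1 rose 2.55-fold (edgeR adjusted p = 0.0355) and lost its call with S34F replicate 1 or 3 or WT replicate 2 or 3 left out (highest adjusted p = 0.131), with WT replicates 2 and 3 summed (0.112) and with the replicate block (0.0506). Of 9 genes for the line's myeloid identity 7 could be tested and 1 rose, with sums of 1367 to 1666 CPM in S34F and 1163 to 1327 CPM in WT, and Cebpa at 0. The gene that rose was Spi1, which encodes the ETS factor PU.1, at 217, 194 and 170 CPM in S34F and 120, 131 and 134 CPM in WT (log2 fold change 0.60 ± 0.12, edgeR adjusted p = 0.0491); it lost its call with upper-quartile factors, library totals, GC trend removal or the sum of WT replicates 2 and 3 (adjusted p = 0.0541, 0.0575, 0.122 and 0.192), and in 5 of the 6 fits with a library left out (all but the one without WT replicate 1), where the highest adjusted p was 0.205. T cell and B cell markers reached at most 0.0597 and 0.365 CPM in sum. The part of maturation state in the Hk3 result was not tested, and in bulk RNA more cells of a kind and more RNA per cell cannot be told apart.

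The promoter of Hk3 is shown because Hk3 is the gene with the firmest call. The stretch is chr13:55021336-55021635 on the minus strand of GRCm38.p6 (RefSeq start site, 250 bases before it to 50 after), read 5′ to 3′, and the capitals mark the complement of the word GAGGAAG, the core that PU.1 binds, at -211 from the start site. The stretch also holds CACGT at -156, left in lower case. It is the complement of ACGTG, a core word of the element bound by hypoxia-inducible factors, which is searched below.
Hk3 promoter: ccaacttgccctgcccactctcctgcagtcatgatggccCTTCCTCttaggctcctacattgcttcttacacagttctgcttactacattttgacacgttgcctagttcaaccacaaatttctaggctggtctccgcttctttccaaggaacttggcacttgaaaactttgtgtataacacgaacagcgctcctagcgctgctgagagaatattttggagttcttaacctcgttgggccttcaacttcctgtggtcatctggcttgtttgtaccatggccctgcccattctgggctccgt
The word was found on either strand in 17.8% of the 45 promoters of the matched genes, in 13.6% of all 32851 promoters of the same length and in 13.8% of those of genes tested. A match of letters is a description of the sequence and no binding was measured.

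Between glucose 6-phosphate and the triose phosphates, 7 rows were tested and none passed, with a median log2 fold change of 0.21. Pfkl, Pfkm and Pfkp encode the liver, muscle and platelet subunits of phosphofructokinase, the main controlled step of glycolysis. Pfkl was counted at 390, 323 and 214 CPM in the S34F libraries and at 207, 163 and 169 CPM in the WT libraries. The groups did not overlap, though S34F replicate 3 was just above WT replicate 1, and the difference did not pass (log2 fold change 0.78 ± 0.21, SE, n = 3 per group, edgeR adjusted p = 0.0886; DESeq2 0.00919; 0.288 with WT replicates 2 and 3 summed). Pfkp, counted at 608, 549 and 524 CPM in S34F and 504, 533 and 533 CPM in WT, overlapped between groups (log2 fold change 0.10 ± 0.11). Pfkm, at 42.0 to 59.1 CPM in S34F and 47.7 to 52.5 CPM in WT, also overlapped (-0.06 ± 0.15). Per kb, the liver subunit made up 50.2%, 45.2% and 38.2% of the phosphofructokinase mRNA in the S34F libraries and 36.8%, 31.1% and 31.7% in the WT libraries. That share was higher in every S34F library, by 11.3 percentage points in the mean (exact permutation test, two-sided, p = 0.1, the smallest possible; 0.6 after adjustment over 18 shares). The share of Pfkm was lower in every S34F library, at 14.2% ± 3.0 against 18.4% ± 0.225 (SD, n = 3; exact p = 0.1, adjusted 0.6), and that of Pfkp was 41.3% ± 4.62 against 48.4% ± 3.30 with overlapping groups. These shares depend on exon length, which is 13401 bases for Pfkp and 6675 for Pfkl. In counts not divided by length Pfkp led in both groups, at 61.5% in S34F and 69.6% in WT. Pfkl then took 33.2% in S34F and 23.8% in WT.

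Aldoa, the aldolase of most tissues, was counted at 1835, 1546 and 993 CPM in S34F and at 1092, 831 and 825 CPM in WT. S34F replicate 3 lay below WT replicate 1, and the difference did not pass (log2 fold change 0.67 ± 0.22, edgeR adjusted p = 0.135). A separate row with the symbol Aldoa (ENSMUSG00000114515), annotated directly upstream on the same strand, held only 0.851 to 1.67 CPM, and the isoenzyme Aldoc 3 to 14 reads per library. Tpi1, which interconverts the triose phosphates, was counted at 816, 823 and 438 CPM in S34F and 462, 371 and 381 CPM in WT. S34F replicate 3 again lay below WT replicate 1 (log2 fold change 0.77 ± 0.23, edgeR adjusted p = 0.110), and without S34F replicate 3 the log2 fold change was 1.02 (adjusted p = 0.0526). Gpi1, glucose phosphate isomerase, overlapped between groups at 558 to 704 CPM in S34F and 530 to 668 CPM in WT (log2 fold change 0.13 ± 0.14).

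**Figure D3:**
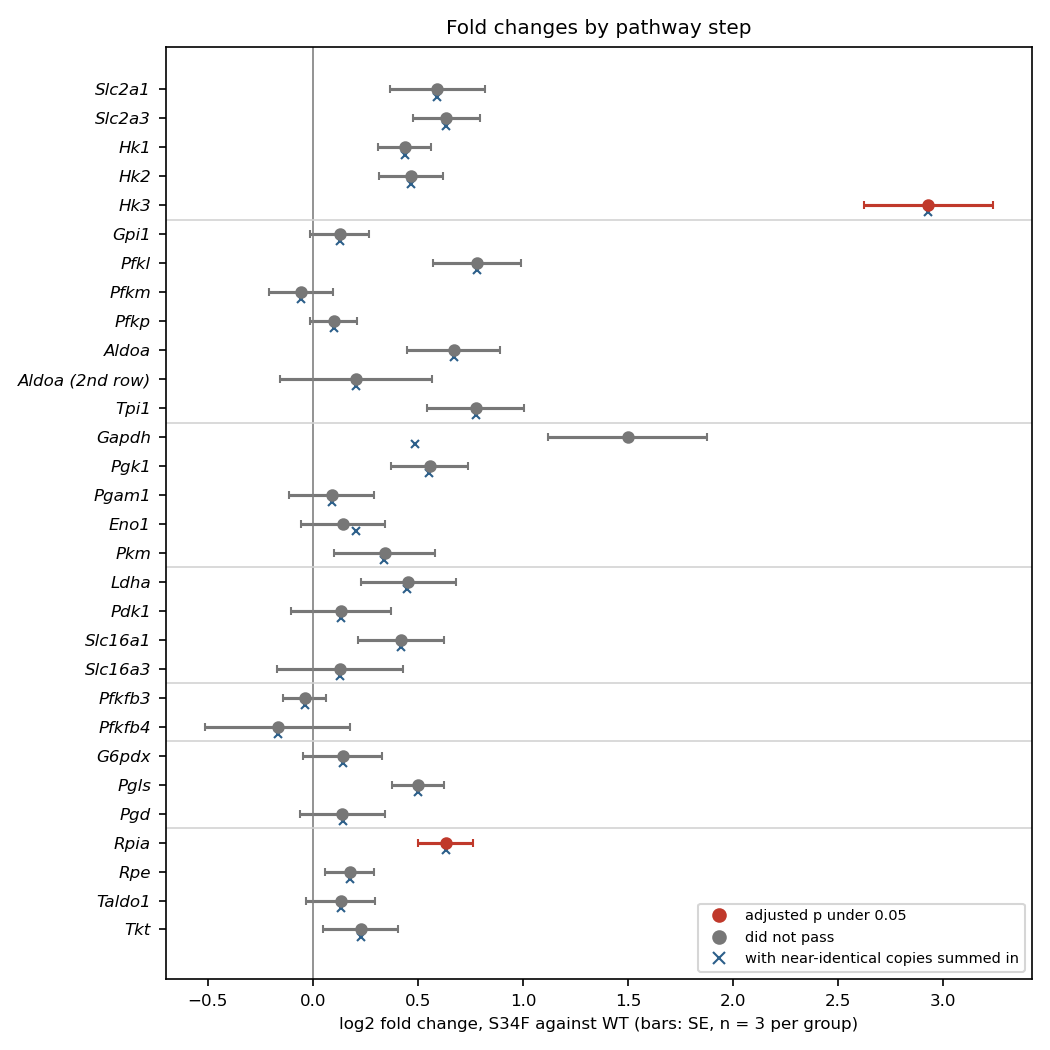
Log2 fold change of S34F against WT for each tested row in pathway order, with SE bars (n = 3 per group); red marks the genes with an edgeR adjusted p under 0.05 and blue crosses the value after near-identical copies were summed in. Hk3 and Rpia are the red points, and only the crosses of Gapdh and Eno1 stand visibly apart from their points.

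Gapdh, which oxidises glyceraldehyde 3-phosphate, was the gene whose counts depended on its copies. Its own row (ENSMUSG00000057666, chromosome 6, 125161715 to 125166467, minus strand, mm10) held 60.5, 57.6 and 166 CPM in the S34F libraries and 38.5, 31.8 and 30.1 CPM in the WT libraries. All S34F libraries lay above WT, and S34F replicate 3 stood far above the rest (log2 fold change 1.5 ± 0.38, SE, n = 3 per group, edgeR adjusted p = 0.0786; without that library 0.82, adjusted p = 0.0817). Such a row is low for a gene that most cells express strongly. A search of all annotated transcripts for stretches at least 90% identical to Gapdh over at least 200 bases found 177 other gene models, 108 of them with counts, and these held 92.4% of the summed counts. The processed pseudogene Gm13394 alone (chromosome 2, 28933610 to 28934609, minus strand) held a mean of 734 CPM.

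Gm13394 matches the longest Gapdh reading frame at 999 of 1000 aligned bases (bases 79 to 1078 of 1080, numbered from the A of its first ATG). The only difference is A424C, with the base of Gapdh first and that of the pseudogene second. The stretch of bases 404 to 444 is printed from the GENCODE M21 transcripts to show how little sets the copies apart, 5′ to 3′ with the differing base in capitals.
Gapdh: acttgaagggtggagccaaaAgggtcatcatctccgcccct
Gm13394: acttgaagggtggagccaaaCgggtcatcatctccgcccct
Within the aligned stretch, a read that does not cross this base is the same in both genes, while reads from the ends of the Gapdh transcript lie outside it. The counts of the Gapdh row alone therefore need not give the level of Gapdh mRNA. Gapdh and its copies together held 1116, 921 and 898 CPM in the S34F libraries and 1011, 564 and 518 CPM in the WT libraries. In that sum S34F replicates 2 and 3 lay below WT replicate 1, so the groups overlapped, and the log2 fold change was 0.49 (edgeR adjusted p = 0.281).

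**Figure D4:**
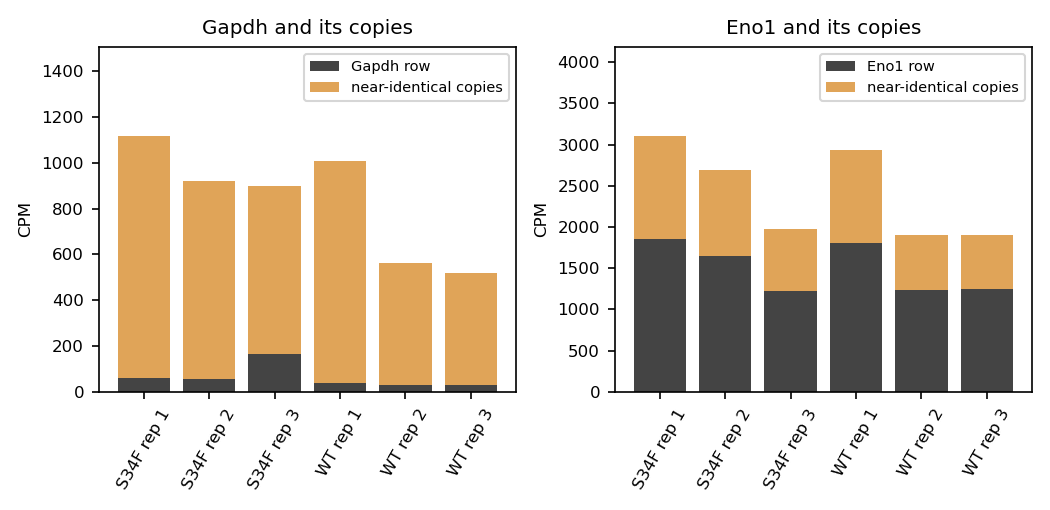
CPM of the Gapdh row (left) and the Eno1 row (right) in each library, in dark grey, with the summed CPM of their near-identical copies stacked above in orange. For Gapdh the copies hold most of the bar in every library, and WT replicate 1 reaches the height of the S34F libraries; for Eno1 the gene's own row is the larger part.

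The other tested genes between triose phosphate and pyruvate had positive fold changes, as 50.1% of all genes did, and none passed. Pgk1, which makes the first ATP of this stretch, was counted at 1186, 1108 and 883 CPM in S34F and at 915, 621 and 625 CPM in WT. Only S34F replicate 3 and WT replicate 1 crossed, and the difference did not pass (log2 fold change 0.56 ± 0.18, edgeR adjusted p = 0.136; 0.0293 without WT replicate 1, up to 0.436 without another library). Pkm encodes pyruvate kinase, and 15.3% of its exon bases are shared with Gm49759 on the same strand, at a mean of 115 CPM. Pkm was counted at 2956, 2530 and 2176 CPM in S34F and at 2878, 1575 and 1593 CPM in WT. WT replicate 1 lay among the S34F libraries (log2 fold change 0.34 ± 0.24, edgeR adjusted p = 0.438; 0.0394 without WT replicate 1, up to 0.811 without another library). The phosphoglycerate mutase gene Pgam1 was counted at 548, 517 and 389 CPM in S34F and at 598, 389 and 380 CPM in WT, so that WT replicate 1 was the highest of all (log2 fold change 0.09 ± 0.20). Enolase gene Eno1 was counted at 1853, 1648 and 1228 CPM in S34F and at 1805, 1236 and 1241 CPM in WT, with S34F replicate 3 the lowest of all (log2 fold change 0.14 ± 0.20). Copies held 37.9% of the Eno1 family's counts, chiefly Eno1b at a mean of 492 CPM and Gm4735 at 418 CPM, and with them summed the log2 fold change was 0.20 (edgeR adjusted p = 0.623). The neuronal isoenzyme gene Eno2 had at most 4 reads in a library.

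Per kb of exon and by own rows, without copies, Pkm was the most abundant of the 33 rows (511 CPM per kb in S34F and 403 in WT), followed over all libraries by Aldoa (501 and 315) and Pgk1 (472 and 321). In WT alone Pgk1 stood slightly above Aldoa. Next came Ldha (381 and 278), Eno1 (293 and 265), Pgam1 (245 and 230) and Tpi1 (251 and 147). This order depends on the copies. With them summed in, per kb of the gene's own exons, Eno1 stood at 481 CPM per kb in S34F and 418 in WT. Pkm then stood at 516 and 408, and Gapdh at 237 and 169. The order also depends on the length used, which is that of all annotated exons of a gene. It is 4133 bases for Gapdh, 5379 for Eno1 and 2244 for Pgk1. Their longest coding transcripts have 1420, 2027 and 1825 bases. The order per transcript length was not worked out and may differ, for Gapdh above all. The pentose phosphate genes were lower, from 90.3 and 82.4 CPM per kb for Taldo1 down to 9.68 and 6.24 for Rpia.

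Pyruvate is reduced to lactate by lactate dehydrogenase and leaves the cell through monocarboxylate transporters. Ldha was counted at 1481, 1272 and 1034 CPM in the S34F libraries and at 1262, 732 and 770 CPM in the WT libraries. WT replicate 1 lay within the S34F range, and the difference did not pass (log2 fold change 0.45 ± 0.23, SE, n = 3 per group, edgeR adjusted p = 0.279; 0.0380 without WT replicate 1, up to 0.648 without another library). Ldhb, the form that favours pyruvate, had 0 reads in all 6 libraries, which allows at most 0.182 CPM in the shallowest. The lactate transporter MCT1, encoded by Slc16a1, was counted at 329, 237 and 277 CPM in S34F and at 279, 184 and 167 CPM in WT. WT replicate 1 was above S34F replicates 2 and 3 (log2 fold change 0.42 ± 0.21, edgeR adjusted p = 0.275; 0.0397 without WT replicate 1, up to 0.627 without another library). Slc16a3, which encodes MCT4, held only 1.55 to 2.43 CPM. Pdk1, a kinase that shuts pyruvate dehydrogenase, was 1 of 7 tested rows with WT replicate 1 as the lowest WT library. It was counted at 141, 178 and 98.1 CPM in S34F and at 91.3, 145 and 144 CPM in WT. WT replicate 1 was its lowest library, S34F replicate 3 the next, and the groups overlapped (log2 fold change 0.13 ± 0.24).

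Promoters of 31 of the 32 genes were found in the RefSeq table (45 promoters, GRCm38.p6), with Slc2a3 unmatched. The words ACGTG and GCGTG, the core of the element bound by hypoxia-inducible factors, were searched on both strands; an ACGTG on each strand overlaps in a CACGTG. At least 1 of these words was present in 77.8% of the 45, in 43.8% of all promoters and in 61.3% of promoters of genes tested. The E-box CACGTG was present in 8.89%, 7.15% and 9.94% of these sets. Ldha is shown because its promoter (chr7:46845554-46845853, plus strand) held the most matches of the hypoxia words, 7, among them both strands of 2 CACGTG; the capitals mark them.
Ldha promoter: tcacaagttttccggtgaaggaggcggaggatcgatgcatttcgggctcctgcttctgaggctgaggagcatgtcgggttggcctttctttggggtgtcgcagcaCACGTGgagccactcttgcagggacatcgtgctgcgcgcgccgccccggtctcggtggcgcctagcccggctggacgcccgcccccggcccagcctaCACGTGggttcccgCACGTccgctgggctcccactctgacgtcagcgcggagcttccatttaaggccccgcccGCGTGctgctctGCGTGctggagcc
Among the other genes, Hk1 and Slc16a1 had 5 matches in a promoter and Gpi1, Tpi1, Rpe and Eno2 had 0.

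Phosphofructokinase is also set by fructose 2,6-bisphosphate, which PFKFB enzymes make and remove. Pfkfb3 was counted at 66.1, 69.0 and 71.8 CPM in S34F and at 68.8, 68.9 and 74.7 CPM in WT. Its libraries were close to equal, and the difference was within their spread (log2 fold change -0.04 ± 0.10). Pfkfb4 held 2.13 to 4.95 CPM and overlapped between the groups (-0.17 ± 0.35).

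In the pentose phosphate pathway all 7 genes had positive fold changes, against 50.1% of all genes. Their median log2 fold change was 0.17, and 1 rose. Rpia (ENSMUSG00000053604, chromosome 6, 70765720 to 70792232, minus strand, mm10) encodes ribose 5-phosphate isomerase, which makes the sugar of nucleotides. It was counted at 55.5, 45.0 and 55.1 CPM in the S34F libraries and at 36.4, 31.6 and 32.4 CPM in the WT libraries. The lowest S34F library, replicate 2, was above the highest WT library, replicate 1. Rpia rose 1.55-fold (log2 fold change 0.63 ± 0.13, SE, n = 3 per group, edgeR adjusted p = 0.0492). The call lay at the threshold and held in 8 of 17 alternatives. Its log2 fold change stayed between 0.57 and 0.73 in the leave-one-out fits, while its edgeR adjusted p was 0.168 or 0.143 when S34F replicate 1 or 3 was left out and 0.233 or 0.225 when WT replicate 2 or 3 was. It was 0.222 with WT replicates 2 and 3 summed, 0.0539 with upper-quartile factors, 0.0521 with library totals alone, 0.0515 with a filter of 1 CPM in 3 libraries and 0.0543 in limma-voom. The promoter (chr6:70792126-70792425, minus strand) is shown as that of the other called gene, with the complement of its single GCGTG in capitals.
Rpia promoter: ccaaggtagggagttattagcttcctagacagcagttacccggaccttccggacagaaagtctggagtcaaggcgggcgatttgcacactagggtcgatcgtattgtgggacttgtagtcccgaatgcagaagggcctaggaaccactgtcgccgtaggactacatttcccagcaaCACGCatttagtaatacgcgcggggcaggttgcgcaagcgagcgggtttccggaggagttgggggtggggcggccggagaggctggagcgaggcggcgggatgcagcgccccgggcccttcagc

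The oxidative arm begins with G6pdx, glucose-6-phosphate dehydrogenase. It was counted at 118, 82.2 and 77.0 CPM in S34F and at 100, 77.5 and 73.6 CPM in WT, so only S34F replicate 1 lay above all WT libraries (log2 fold change 0.14 ± 0.19, edgeR adjusted p = 0.699). Pgls, the lactonase of the next step, stood at 143, 114 and 123 CPM in S34F and at 96.4, 88.7 and 83.4 CPM in WT. Its groups did not overlap, but it did not pass (log2 fold change 0.50 ± 0.12, edgeR adjusted p = 0.0722; DESeq2 0.0128; 0.275 with WT replicates 2 and 3 summed), and 20.6% of its exon bases are shared with Fam129c on the same strand, which held a mean of 7.75 CPM. Pgd, which makes the last NADPH of the arm, was counted at 264, 235 and 180 CPM in S34F and at 267, 174 and 174 CPM in WT. WT replicate 1 was its highest library (log2 fold change 0.14 ± 0.20, edgeR adjusted p = 0.725). In the non-oxidative arm, transketolase gene Tkt was counted at 440, 327 and 321 CPM in S34F and at 383, 272 and 275 CPM in WT, with WT replicate 1 inside the S34F range (0.23 ± 0.18, edgeR adjusted p = 0.489). Taldo1, transaldolase, and Rpe, the epimerase, overlapped between groups as well (log2 fold changes 0.13 ± 0.16 and 0.17 ± 0.12). Of the exon bases of Rpe and G6pdx, 17.9% and 13.6% lie opposite Kansl1l and Ikbkg, and the strand setting of the counting is not given in the sources used here.

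**Figure D5:**
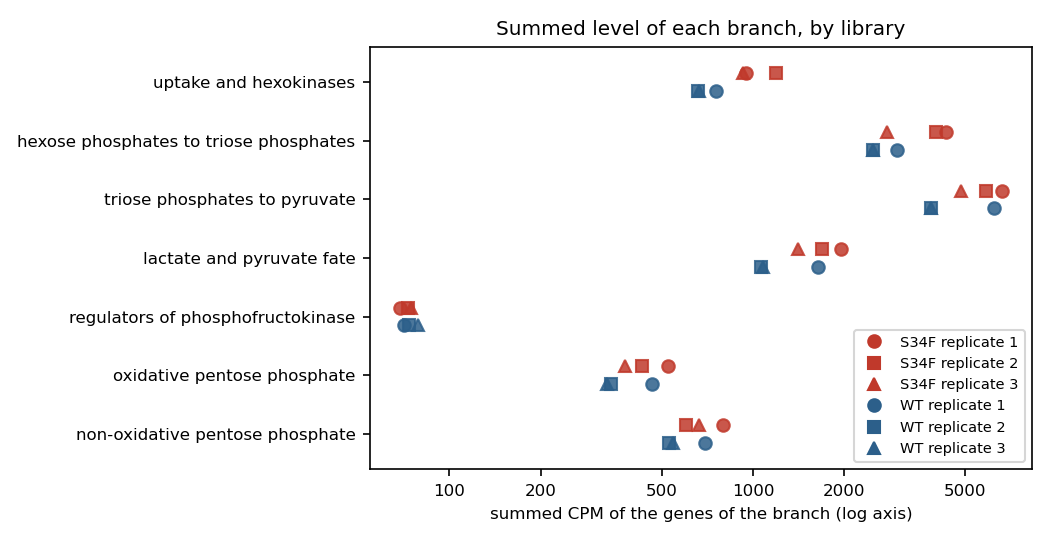
Summed CPM of the genes of each of the 7 branches in each library, on a log axis (red S34F, blue WT). Only for uptake and hexokinases do all S34F libraries (929 to 1192 CPM) lie above all WT libraries (658 to 756 CPM).

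Summed by branch, uptake and hexokinase genes reached 947, 1192 and 929 CPM in the S34F libraries and 756, 658 and 664 CPM in the WT libraries. Those groups did not overlap, and the ratio of the means was 1.48. From hexose to triose phosphates the sums were 4327, 4006 and 2772 CPM against 2986, 2483 and 2490 CPM, with S34F replicate 3 below WT replicate 1. The sums from triose phosphates to pyruvate were 6603, 5861 and 4842 CPM against 6235, 3853 and 3869 CPM. The ratios of the means were 1.40 and 1.24 for these, 1.34 for lactate and pyruvate fate, 1.18 for the oxidative and 1.17 for the non-oxidative pentose phosphate arm, and 0.969 for the PFKFB genes. Sums over many genes follow the most abundant ones and got no test. Over all rows these were Pkm, Eno1 and Aldoa. In the uptake and hexokinase branch it was Slc2a3, with means of 420 CPM in S34F and 270 CPM in WT. All 33 rows together took 1.32% ± 0.184 of the counts in S34F and 1.04% ± 0.194 in WT (SD, n = 3), with WT replicate 1 at 1.26% and S34F replicate 3 at 1.11%.

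Genes of neighbouring pathways gave medians nearer to 0 than the 0.28 of the 30 rows. The 7 pentose phosphate genes alone gave 0.17, close to some of these lists. At an unadjusted p under 0.05 (edgeR), 11.9% of all genes were higher and 10.1% lower, and the counts below stand beside those shares. Of 18 genes listed for the tricarboxylic acid cycle none passed, with a median log2 fold change of 0.04 (edgeR). At an unadjusted p under 0.05, 0 were higher and 2 lower. The smallest p was that of Mdh1, cytosolic malate dehydrogenase, at 88.0, 81.7 and 86.2 CPM in S34F and 149, 113 and 121 CPM in WT (log2 fold change -0.58 ± 0.13, edgeR adjusted p = 0.0577). As a cytosolic enzyme it lies outside the mitochondrial cycle, whose own form Mdh2 overlapped between groups (log2 fold change 0.06 ± 0.21). None of 13 tested genes for the entry of pyruvate into mitochondria passed either (median 0.02, 1 higher and 2 lower at an unadjusted p under 0.05), and the smallest p was that of Pdp1 (0.71 ± 0.26, edgeR adjusted p = 0.159). Of 20 tested isoenzymes and transporters outside the list none passed (median 0.04, 5 higher and 3 lower at an unadjusted p under 0.05), with the smallest p for Prps2 (-0.52 ± 0.13, edgeR adjusted p = 0.0730), which makes the ribose donor of nucleotides. The 8 genes of serine and one-carbon metabolism had a median of 0.16 and the 5 tested rows of other NADPH sources one of -0.11, with no gene past the adjusted threshold and none at an unadjusted p under 0.05; the smallest p-values were those of Shmt1 (0.25 ± 0.18) and Nnt (-0.65 ± 0.54). Of 18 tested genes of glycogen and hexose phosphates (median 0.12), 4 were higher and 0 lower at an unadjusted p under 0.05 (edgeR). Every S34F library lay above every WT library for 5 of the 18 (27.8%) and below for 1, where 13.1% of all genes lay below. The share above was like the 26.7% of the 30 glycolysis and pentose phosphate rows, against 14.0% of all genes. By adjusted p 1 of the 18 rose, Gnpda1, which turns glucosamine 6-phosphate into fructose 6-phosphate. It was counted at 39.1, 48.3 and 53.6 CPM in S34F and at 20.9, 23.3 and 28.0 CPM in WT, without overlap (log2 fold change 0.97 ± 0.16, edgeR adjusted p = 0.0286), and with WT replicates 2 and 3 summed its adjusted p was 0.107. It also lost its call in 5 of the 6 fits with a library left out, where the highest adjusted p was 0.131; the fit without WT replicate 1 kept it.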

How the data were processed

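Gene counts of 6 RNA-seq libraries (2 groups of 3, from a directional kit per the labels' protocols) were used as the authors deposited them: whole-number read counts per Ensembl gene. HISAT2, featureCounts and the build mm10 are named, per the submitters' processing notes; neither their versions nor the strand setting, the release of the annotation or how reads with several hits were treated is stated there. Sample titles gave the groups and replicates. By gene ID, 27 symbols that appeared as dates were corrected, and coordinates, exon lengths and GC content came from GENCODE M21, which held 54495 of the 54532 rows.

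Counts were tested in edgeR 4.0.16 (R 4.3.3) with TMM factors, the filterByExpr filter, glmQLFit (robust) and glmQLFTest, two-sided, genotype as the only term, 4 residual degrees of freedom and Benjamini-Hochberg adjustment over all 13444 genes at 0.05; the procedure was tested on simulated counts. Shares of isoenzymes were taken from CPM per kb and compared with exact permutation tests, adjusted over 18 shares. Floors cover counting error only. Each SE is the absolute log2 fold change divided by the square root of the F statistic of the edgeR fit. Both SE and SD include the spread between libraries.

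Other settings tried were RLE factors, upper-quartile factors, library totals, no filter, 1 CPM in 3 libraries, DESeq2 1.42.0, limma-voom (limma 3.58.1), a replicate block, each library left out (the group then has fewer libraries), WT replicates 2 and 3 summed, and offsets removing a loess trend with GC content (span 0.5). Summing copies found with blastn 2.17.0 was chosen after seeing that Gapdh was counted low. Described in full were members that were called, had an unadjusted p under 0.05, or were the most abundant of their step, and from each of 15 other lists the called genes, or the gene with the smallest p. Members and lists were chosen with earlier results of these data known.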

Additional observations from a re-analysis of the deposited data

How the results depend on the processing

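Hk3 kept its call in all 17 alternatives. The number of the 30 rows that rose was 1 (Hk3) with upper-quartile factors, library totals alone, a filter of at least 1 CPM in 3 libraries, limma-voom or WT replicates 2 and 3 summed, 6 with no count filter and 10 in DESeq2. It ranged from 1 to 9 with a library left out, and none fell in any setting. Over all genes the rises numbered 500 with no count filter, 746 in DESeq2, 137 after removal of the GC trend and 16 with WT replicates 2 and 3 summed, and the falls 263, 470, 48 and 4; with a library left out they ranged from 16 to 722 and from 2 to 455. The median log2 fold change of the 30 rows ranged from 0.23 to 0.49 with a library left out. The cause of these shifts was not tested, apart from the fewer libraries.

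The replicate numbers as a block gave 12 rises among the 30 rows and 878 rises and 540 falls over all genes. Same-numbered libraries correlated in their deviations at 0.33, 0.16 and 0.07. S34F replicate 3 correlated at 0.08 with WT replicate 2, and WT replicate 3 at 0.15 with S34F replicate 2. WT replicates 2 and 3 were too alike for these correlations to decide whether the numbers are pairs. The labels state no pairing, so the block was kept as an alternative only.

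Small values turned sign. With a library left out the log2 fold change ranged from -0.23 to 0.024 for Pfkm, -0.027 to 0.34 for Pgam1, -0.082 to 0.34 for Pdk1, -0.046 to 0.28 for Slc16a3, -0.067 to 0.00051 for Pfkfb3, -0.45 to 0.062 for Pfkfb4, -0.084 to 0.30 for G6pdx and -1.01 to 0.067 for Nnt. Pgam1 was -0.020 with WT replicates 2 and 3 summed, and Eno1 and Slc16a3 were -0.0067 and -0.022 after removal of the GC trend. Shares of isoenzymes, S34F minus WT in percentage points, ranged with a library left out from -3.80 to 2.60 for Slc2a1, -2.66 to 0.056 for Hk2, -0.0054 to 0.028 for Aldoa, -0.0069 to 0.00032 for Eno1 and -0.65 to 2.07 for Pfkfb3, which was -0.24 with WT replicates 2 and 3 summed. The share of Hk3 was 3.84 points higher per kb and 2.02 points higher in counts not divided by length. At this depth 3 reads equal 0.156 to 0.182 CPM, which limits what can be said of Aldoc, Eno2 and Ldhb.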

Other observations

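Genes known to be induced by hypoxia, chosen outside glycolysis, were also mostly higher in S34F cells. Of 22 listed genes 17 could be tested, with a median log2 fold change of 0.37. Of the 17, 13 had positive log2 fold changes, where 50.1% of all genes did. For 8 of the 17 (47.1%) every S34F library lay above every WT library, against 14.0% of all genes. By the edgeR test 1 gene rose, Ero1l, an oxidase of the endoplasmic reticulum. Ero1l was counted at 691, 874 and 593 CPM in the S34F libraries and at 363, 434 and 439 CPM in the WT libraries (log2 fold change 0.80 ± 0.16, SE, n = 3 per group, edgeR adjusted p = 0.0476). WT replicate 1 was its lowest library, and the groups did not overlap. The call was lost with upper-quartile factors (adjusted p = 0.0516), library totals alone (0.0598) and WT replicates 2 and 3 summed (0.163), and in 5 of the 6 fits with a library left out (up to 0.170); without WT replicate 1 it was 0.0419. Adm, Stc2 and P4ha2 had no reads.

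Regulators of glycolytic genes gave a median log2 fold change of 0.16 over 22 tested genes, and none passed (edgeR). At an unadjusted p under 0.05, 5 were higher and 2 lower, where 11.9% of all genes were higher and 10.1% lower. Every S34F library lay above every WT library for 6 of them (27.3%, against 14.0% of all genes) and below for 2, where 13.1% of all genes lay below. Hif1a itself overlapped between groups, at 836 to 1618 CPM in S34F and 1380 to 1623 CPM in WT. The smallest p was that of Egln2, a prolyl hydroxylase that marks hypoxia-inducible factors for degradation, at 57.2, 49.5 and 62.6 CPM in S34F and 41.2, 37.2 and 40.1 CPM in WT (log2 fold change 0.51 ± 0.12, edgeR adjusted p = 0.0710). Of the erythroid and fibroblast markers 2 of 5 and 1 of 5 could be tested, none passed, and their sums stayed at 2.03 and 3.07 CPM or less. Hif1a was named after its values were seen. Protein, metabolite and oxygen levels were not measured here.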
